A study of Mus musculus with 6 samples.

Results

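The 44 genes described here encode the interstitial matrix of skeletal muscle and the fibroblasts that make it: fibrillar collagens, collagen VI, other collagens, proteoglycans, elastic fibre proteins, matrix glycoproteins, collagen processing and remodelling proteins, and 3 fibroblast surface or cytoskeletal proteins. They were chosen by gene symbol, with earlier results of these data known. All 44 were found among the 41025 genes of the tables and were above 0 in all 6 libraries. The libraries came from the tibialis anterior (TA), a muscle at the front of the lower hindlimb, of 8-week-old C57BL/6 animals. Of these, 3 carried a wild-type (WT) label and 3 a Mettl21e knockout (KO) label, with no treatment named. Mettl21e encodes a protein methyltransferase of muscle. How the allele was made, the sex of the animals, and whether the deletion was confined to 1 cell type are not stated in the labels. The replicates are called biological but not tied to separate mice, so a p-value here reflects how much these 6 libraries spread.

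Around each muscle fibre and fibre bundle, resident fibroblasts lay down a network of collagen I and III fibrils. Small leucine-rich proteoglycans coat the fibrils, collagen VI filaments link them to the basement membrane, and elastin with its microfibrils adds recoil. The collagen chains are folded by chaperones, trimmed, cross-linked and later cut by metalloproteinases, which TIMP proteins inhibit. In bulk muscle RNA, fewer cells of a type and less RNA per cell cannot be told apart.

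Values are FPKM, fragment counts divided by gene length and by the library's total. Between 8476591 and 10856669 fragments stood behind a library, and each fragment added 0.0921 to 0.118 FPKM to a gene 1 kb long. A member held from 4 to 7002 fragments in a library, and 29 of the 44 held at least 100 in every library. Mettl21e itself stood at 2.46, 0.309 and 1.23 FPKM in the WT-labelled libraries 1, 2 and 3, and at 1.64, 1.45 and 1.88 FPKM with the KO label. The targeted transcript was thus not lower under the KO label (log2 difference 0.29, SE 0.31, limma adjusted p = 0.988), and groups are named by their labels throughout. Differences below are KO label minus WT label on the log2(FPKM + 1) scale, tested with limma over 11383 genes whose mean reached 1 FPKM. This left out 1 member, Lox, which encodes the cross-linking enzyme lysyl oxidase.

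Nearly all matrix genes had a lower mean under the KO label, but the WT-labelled libraries differed widely among themselves. Of 43 tested members, 41 had a lower mean under the KO label, against 56.7% of all tested genes. Because the members were chosen with earlier results known, such comparisons describe them and are no test. The members' median log2 difference was -0.34, against -0.02 over all tested genes, with a range from -0.83 for Col1a1 to 0.13 for Timp3. The lower end depends on the scale, since low genes are understated here: by voom it was -1.18 for Mfap4, against -0.85 for Col1a1. No member passed the adjusted test, and neither did any other gene (0% of 11383, 0 of 43 members). Every member had a limma adjusted p of 0.988. At an unadjusted p under 0.05, 4 members were lower, where 3.31% of all tested genes were lower, and 0 were higher, where 1.28% of genes were. A voom fit of fragment counts recovered from the FPKM values also called 0 members, with 5 lower at an unadjusted p under 0.05, where 2.9% of all tested genes were.

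WT-labelled library 1 lay apart from the other libraries of its label for nearly the whole set. It was the lowest of all 6 libraries for 32 of the 44 members, within the range of the KO-labelled libraries for 7, and above all of them for 5. Among all tested genes it was the lowest for 22.4%. Its level divided by the mean of WT-labelled libraries 2 and 3 had a median of 0.475 over the members, with a range of 0.189 to 0.807. Libraries 2 and 3 of the WT label, in turn, both lay above all 3 KO-labelled libraries for 39 members, a pattern held by 20.2% of all tested genes. The highest library was WT-labelled library 2 for 28 members, WT-labelled library 3 for 15 and a KO-labelled library for 1.

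Summed over the 44 members, the level was 837, 1654 and 1575 FPKM in WT-labelled libraries 1 to 3, and 1036, 951 and 1136 FPKM in the KO-labelled ones. As a share of all fragments these genes held 0.155%, 0.315% and 0.298% against 0.191%, 0.179% and 0.213%. The WT label thus holds both the lowest sum and the 2 highest, and the KO-labelled sums lie between them. The highest value divided by the lowest had a median of 2.21 over the members within the WT label and 1.31 within the KO label. The WT label had the wider span for 42 of the 44, and for 55.3% of all tested genes.

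**Figure D1:**
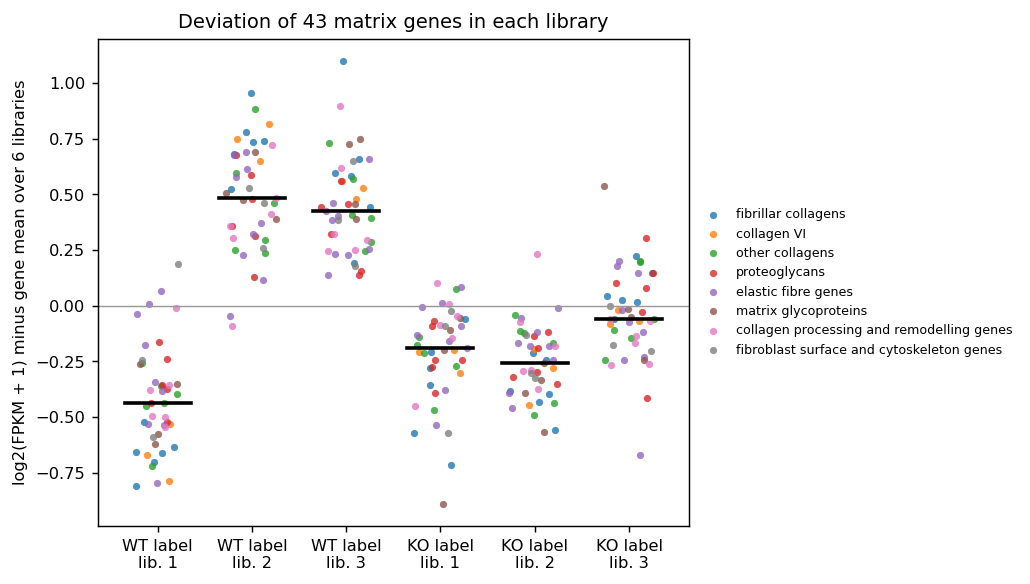
Each point is 1 of the 43 tested genes in 1 library, plotted as its log2(FPKM + 1) minus that gene's mean over the 6 libraries, coloured by role, with a bar at the median. WT-labelled library 1 has a median of -0.44, WT-labelled libraries 2 and 3 lie at 0.48 and 0.43, and the KO-labelled libraries lie at -0.19, -0.26 and -0.06.

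With WT-labelled library 1 left out, all 43 tested members were lower under the KO label, with a median of -0.65 on the log2 scale. An unadjusted p under 0.05 was then reached by 38 members, where 9.35% of all tested genes reached it with a lower KO mean. The adjusted test was still passed by 0 of the 43 and by 0.00879% of all tested genes, that is by 1 gene. The smallest limma adjusted p of a member was 0.0754, for Bgn. Without WT-labelled library 2 the median was -0.19 and without WT-labelled library 3 it was -0.23. An unadjusted p under 0.05 was reached by 3 members in each of these fits, and by 3.13% and 3.02% of all tested genes. WT-labelled library 1 lay below the mean of the others of its label for every member, so leaving it out lowered each KO-minus-WT difference. The size of the difference thus follows which WT-labelled libraries enter.

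**Figure D2:**
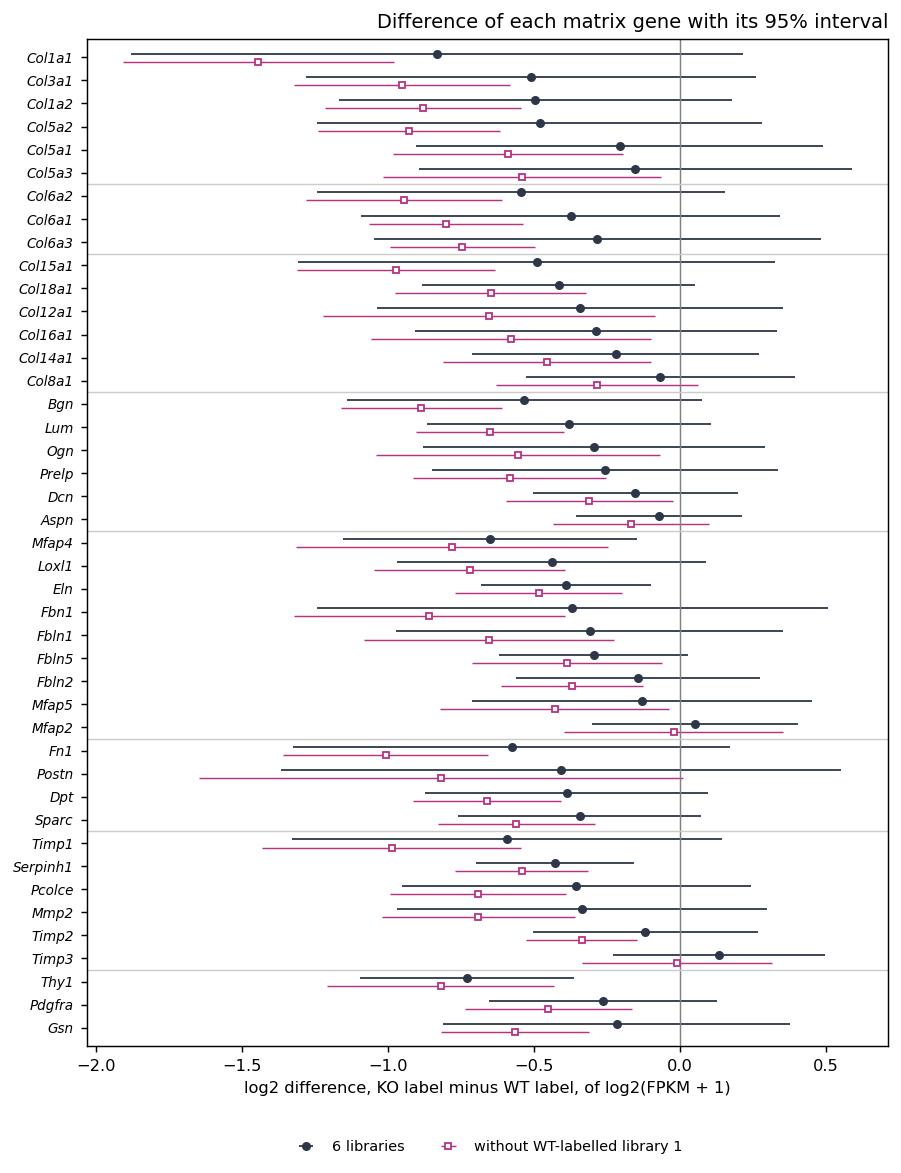
Log2 difference, KO label minus WT label, of each tested gene with its 95% interval from limma, in order of role; filled circles use 6 libraries and open squares leave out WT-labelled library 1. Filled intervals exclude 0 for Serpinh1, Eln, Mfap4 and Thy1, and the open squares lie to the left of the filled circles for all 43 genes.

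Promoters are shown for 4 members, of which Col1a2 is a chain of collagen I and Col3a1 the chain of collagen III. The others are the proteoglycan with the smallest adjusted p without WT-labelled library 1 and the collagen chaperone whose groups did not overlap. The promoters let the members' start regions be compared by sequence. Each is 120 bases directly upstream of the RefSeq start (build GRCm38.p6), written 5′ to 3′ on the gene's strand, with the searched motifs in capitals. They lie at chr6:4505498-4505617 (plus strand) for Col1a2, chr1:45311418-45311537 (plus) for Col3a1, chrX:73483481-73483600 (plus) for Bgn and chr7:99353240-99353359 (minus) for Serpinh1.
Col1a2: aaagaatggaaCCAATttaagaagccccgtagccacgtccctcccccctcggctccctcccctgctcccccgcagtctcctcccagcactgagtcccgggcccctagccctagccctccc
Col3a1: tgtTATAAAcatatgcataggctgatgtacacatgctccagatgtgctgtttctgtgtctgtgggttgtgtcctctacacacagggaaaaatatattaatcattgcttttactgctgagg
Bgn: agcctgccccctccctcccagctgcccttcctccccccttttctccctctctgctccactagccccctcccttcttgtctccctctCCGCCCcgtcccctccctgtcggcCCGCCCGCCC
Serpinh1: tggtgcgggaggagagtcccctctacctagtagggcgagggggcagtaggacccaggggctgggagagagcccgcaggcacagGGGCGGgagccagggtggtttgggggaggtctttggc

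Within the 120 bases shown, the capitals mark letters matching a CCAAT box in Col1a2, a TATA box in Col3a1, and GC boxes in Bgn and Serpinh1. The match in Col3a1 lies near the upstream end of the stretch, far from the start. Over 250 bases Col1a2 also held 2 GC boxes. These motifs were searched over 250 bases upstream, on both strands and with overlaps allowed. The RefSeq table held 38 promoters of 30 members. The GC box (GGGCGG or CCGCCC) was found in 22 of them (57.9%), and in 32.7% of all 32851 promoters of the table. The CCAAT box (CCAAT or ATTGG) was found in 12 (31.6%, against 33.8%) and the TATA box (TATAAA or TTTATA) in 4 (10.5%, against 12.4%). The members thus differ from all promoters mostly in the share with a GC box, which describes letters and not binding. Col1a1, Thy1, Eln and Mfap4 are named only.

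The fibrillar collagens, with collagen VI, had the widest gap between the WT-labelled libraries. All 6 had a lower mean under the KO label, with a median log2 difference of -0.49, and WT-labelled library 1 was the lowest library for all 6. Col1a1 (ENSMUSG00000001506, chr11:94936224-94953042, plus strand of mm10) encodes the alpha1 chain of collagen I, the main load-bearing collagen. It measured 27.2, 94.95 and 105 FPKM in WT-labelled libraries 1 to 3 and 29.1, 32.6 and 49.3 FPKM in the KO-labelled ones. The groups overlap only through WT-labelled library 1, which lies below every KO-labelled library. Group means were 75.7 ± 42.3 and 37.0 ± 10.8 FPKM (SD, n = 3 each). The log2 difference was -0.83 (SE 0.46, 95% interval -1.88 to 0.22), and -1.44 without WT-labelled library 1 (limma adjusted p = 0.080). It shrank to -0.56 without WT-labelled library 2 and to -0.49 without WT-labelled library 3.

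Col3a1 (ENSMUSG00000026043, chr1:45311538-45349706, plus strand), the single chain of collagen III, gave 38.2, 100.5 and 95.01 FPKM against 39.9, 51.6 and 60.6 FPKM. Its order of libraries was like that of Col1a1, with a smaller log2 difference of -0.51 (SE 0.34), or -0.95 without WT-labelled library 1 (limma adjusted p = 0.0894). The difference of Col3a1 was -0.27 without WT-labelled library 2 and -0.31 without WT-labelled library 3. Col1a2, the alpha2 chain of collagen I, gave 31.0, 72.5 and 67.7 FPKM against 34.8, 33.0 and 46.4 FPKM. The minor fibrillar chains, those of collagen V, were less abundant. Col5a2, a chain of the collagen V that starts fibrils, gave 3.91, 12.3 and 10.7 FPKM against 5.36, 4.93 and 6.42 FPKM. The log2 differences of Col5a1 and Col5a3 were the smallest of the fibrillar group, at -0.21 and -0.15, and came to 0.0058 and 0.18 without WT-labelled library 2. For Col5a3, KO-labelled library 3, at 5.92 FPKM, lay above WT-labelled library 3, at 5.79 FPKM.

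Among the KO-labelled libraries, library 3 was the highest for all 6 fibrillar collagens and for all 3 collagen VI chains. Over the whole set it was the highest of the 3 for 26 of 43 tested members, where 34.3% of all tested genes had that order. Only 1 of the 6 processing and remodelling genes had it. Summed fibrillar levels were 118, 129 and 174 FPKM in KO-labelled libraries 1 to 3, against 106, 296 and 291 FPKM with the WT label. The KO-labelled libraries therefore also differ among themselves, by less than the WT-labelled ones.

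The balance between members was compared in 14 ratios, 5 of them between collagen chains, picked after the members' values had been seen. Col1a1 over Col1a2, 2 chains of the same trimer, was 0.878, 1.31 and 1.55 in WT-labelled libraries 1 to 3 and 0.837, 0.988 and 1.06 in the KO-labelled ones. In WT-labelled libraries 2 and 3, where both genes were high, Col1a1 was thus higher relative to Col1a2 than in the other 4 libraries. The groups overlap, and an exact two-sided permutation test gave p = 0.3. With 3 against 3 libraries such a test cannot go below 0.1. After Benjamini-Hochberg adjustment over the 14 ratios, the smallest p was 0.509.

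**Figure D3:**
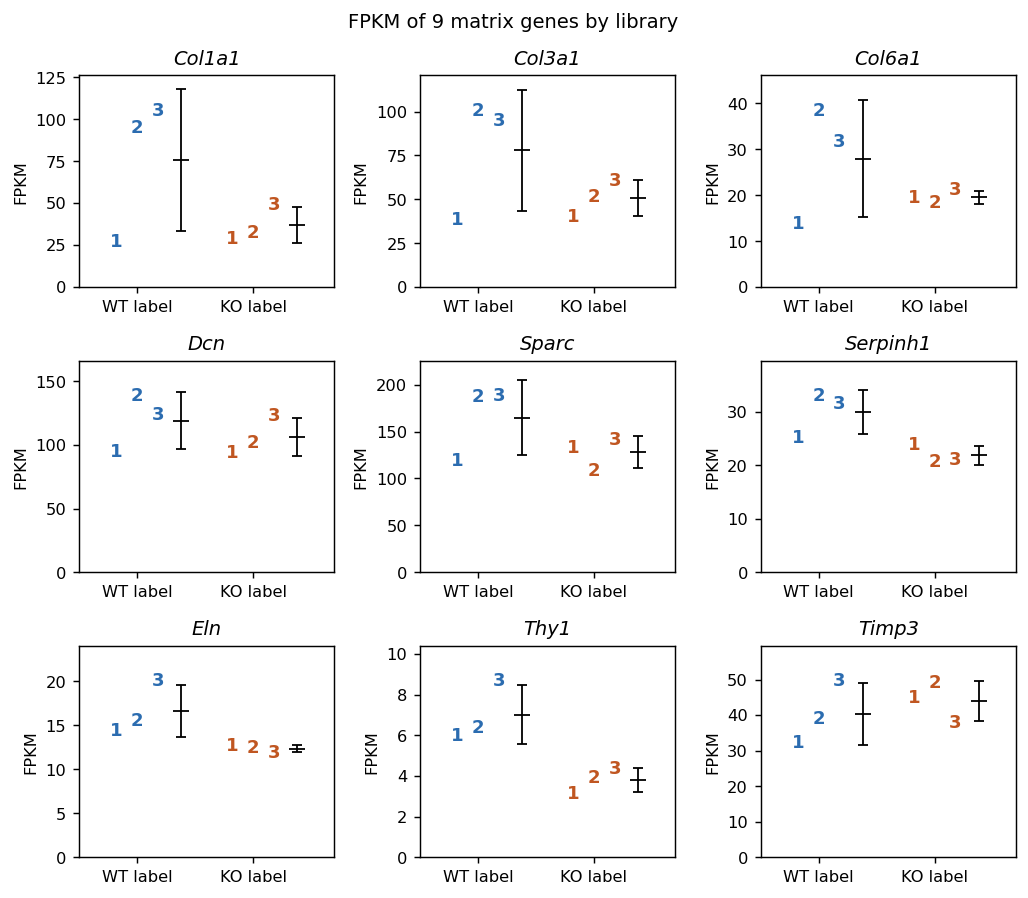
FPKM of 9 members, with each digit marking the numbered library of that label at its value, and the bar beside each group showing mean and SD (n = 3). WT-labelled library 1 lies with or below the KO-labelled libraries for Col1a1, Col3a1, Col6a1, Dcn and Sparc, while the groups do not overlap for Serpinh1, Eln and Thy1.

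Collagen VI forms the beaded filaments that tie the muscle fibre's basement membrane to the interstitium, and mutations in its chains cause inherited muscle disease. All 3 chains were lower in mean under the KO label, with a median log2 difference of -0.37, or -0.80 without WT-labelled library 1. Col6a1 (ENSMUSG00000001119, chr10:76708792-76726168, minus strand) measured 13.7, 38.4 and 31.7 FPKM against 19.4, 18.3 and 21.1 FPKM. Its log2 difference was -0.37 (SE 0.31), with -0.09 without WT-labelled library 2 and -0.23 without WT-labelled library 3. Col6a2 (ENSMUSG00000020241, chr10:76595762-76623630, minus strand) measured 7.76, 21.3 and 17.3 FPKM against 9.26, 8.30 and 11.1 FPKM, with a log2 difference of -0.54 (SE 0.31). For both chains WT-labelled library 1 was the lowest of the 6 and the other WT-labelled libraries were the 2 highest. Col6a3, the third chain, had the smallest difference, -0.28.

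Relative to Col6a2, the other collagen VI chains had groups that did not overlap, unlike the levels of the chains themselves. Col6a1 over Col6a2 was 1.77, 1.80 and 1.84 in the WT-labelled libraries and 2.098, 2.21 and 1.91 in the KO-labelled ones, so the groups did not overlap. The means were 1.80 ± 0.0341 and 2.07 ± 0.149 (SD, n = 3 each; exact two-sided permutation test, p = 0.1, the smallest possible; 0.509 after adjustment). Col6a3 over Col6a2 was 0.742, 0.811 and 0.936 against 0.981, 1.10 and 0.948, again without overlap (exact permutation test, p = 0.1; 0.509 after adjustment). In both ratios WT-labelled library 1 lay on the side of its label. For Col6a3 over Col6a2, WT-labelled library 3, at 0.936, lay close to KO-labelled library 3, at 0.948. Both ratios share Col6a2 and so are not separate results, and Col6a3 over Col6a1 was not compared. Col6a1 and Col6a2 lie 85161 bases apart on the same strand of chromosome 10.

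The other collagens attach fibrils to their surroundings or sit near the basement membrane. All 6 were lower in mean under the KO label, with a median log2 difference of -0.32, and WT-labelled libraries 2 and 3 lay above all KO-labelled libraries for all 6. Col15a1 (ENSMUSG00000028339, chr4:47208161-47313167, plus strand), a collagen of the basement membrane's outer face, gave 8.85, 28.9 and 23.0 FPKM against 10.7, 13.9 and 13.6 FPKM, a log2 difference of -0.49 (SE 0.36). Col18a1 (ENSMUSG00000001435, chr10:77052178-77166548, minus strand), the source of endostatin, gave 2.69, 5.66 and 4.38 FPKM against 2.81, 2.92 and 2.72 FPKM. The KO-labelled values of Col18a1 lie close together and just above WT-labelled library 1. Its log2 difference was -0.42 (SE 0.20), and -0.65 without that library (limma adjusted p = 0.171). It came to -0.22 without WT-labelled library 2 and to -0.38 without WT-labelled library 3. Col8a1, Col12a1, Col14a1 and Col16a1 had log2 differences of -0.07, -0.34, -0.22 and -0.29. Col12a1, a fibril-associated collagen of tendon and fascia, ranged from 0.462 FPKM in WT-labelled library 1 to 2.31 FPKM in WT-labelled library 3.

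The small leucine-rich proteoglycans, which bind collagen fibrils and set their thickness, had smaller differences than the fibrillar collagens. All 6 were lower in mean under the KO label, with a median log2 difference of -0.28. Dcn (decorin, ENSMUSG00000019929, chr10:97479609-97518143, plus strand) was the most abundant of them, at 94.4, 139 and 124 FPKM against 94.0, 101 and 123 FPKM. KO-labelled library 3 lay close to WT-labelled library 3, and the log2 difference was -0.15 (SE 0.15). Bgn (biglycan, ENSMUSG00000031375, chrX:73483602-73495933, plus strand) gave 22.6, 50.3 and 46.3 FPKM against 29.6, 24.6 and 23.1 FPKM. WT-labelled library 1 was again the lowest for Bgn, whose log2 difference was -0.53 (SE 0.27), or -0.89 without that library (limma adjusted p = 0.0754). That difference was -0.33 without WT-labelled library 2 and -0.39 without WT-labelled library 3. Biglycan and decorin, close relatives in structure, thus differed in KO-labelled library 3, which was the highest of its label for Dcn and the lowest for Bgn.

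Lum (lumican), Ogn (osteoglycin), Prelp and Aspn (asporin) had log2 differences of -0.38, -0.29, -0.26 and -0.07. Asporin varied least, from 6.84 FPKM in WT-labelled library 1 to 8.66 FPKM in WT-labelled library 3. Osteoglycin gave 5.53, 9.83 and 10.6 FPKM against 5.43, 5.62 and 9.43 FPKM, so that KO-labelled library 3 lay near the high WT-labelled libraries. Aspn and Ogn lie 40480 bases apart on chromosome 13, and Dcn and Lum 46984 bases apart on chromosome 10. Col1a1 over Dcn was 0.288, 0.686 and 0.846 with the WT label and 0.310, 0.321 and 0.400 with the KO label (exact permutation test, p = 0.4). The high WT-labelled libraries thus held more Col1a1 per decorin transcript than the other 4.

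Elastic fibre genes held 2 of the 4 members with an unadjusted p under 0.05. Of the 9 tested, 8 were lower in mean under the KO label and Mfap2 was higher, with a median log2 difference of -0.31. Eln (ENSMUSG00000029675, chr5:134702593-134747323, minus strand) encodes elastin, the elastic core. It gave 14.3, 15.5 and 20.03 FPKM against 12.6, 12.5 and 11.9 FPKM. Here WT-labelled library 1 stayed above every KO-labelled library and the groups did not overlap. The log2 difference was -0.39 (SE 0.13, 95% interval -0.68 to -0.10, unadjusted p = 0.0148 by limma, adjusted p = 0.988), and an exact permutation test gave p = 0.1, the smallest possible.

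Mfap4 (ENSMUSG00000042436, chr11:61485431-61488900, plus strand), a microfibril-associated protein, also had groups that did not overlap, at 1.32, 2.54 and 1.61 FPKM against 0.948, 1.04 and 0.395 FPKM. These values rest on few fragments: 17, 33 and 17 against 11, 13 and 4. Exact Poisson intervals, which cover counting error only, ran from 0.108 to 1.01 FPKM in KO-labelled library 3 and from 0.555 to 1.78 FPKM in KO-labelled library 2. That of WT-labelled library 1 ran from 0.771 to 2.12 FPKM. It holds the values of KO-labelled libraries 1 and 2, so the gap between these libraries lies within counting error. The log2 difference was -0.65 (SE 0.22, limma unadjusted p = 0.0173), and came to -1.15 with a pseudocount of 0.1 and -1.18 by voom. Fbln5 (fibulin-5), which guides elastin assembly, was the other elastic fibre gene without overlap, at 1.99, 2.59 and 2.66 FPKM against 1.80, 1.59 and 1.92 FPKM. Its log2 difference was -0.30 (limma unadjusted p = 0.0687).

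The other elastic fibre genes had groups that overlapped. Fbn1, encoding fibrillin-1 of the microfibrils, gave 1.28, 5.39 and 5.24 FPKM against 1.73, 2.53 and 3.38 FPKM, with a log2 difference of -0.37. Loxl1, a lysyl oxidase of elastic fibres, had a log2 difference of -0.44, and the untested Lox gave 0.760, 1.46 and 0.981 FPKM against 0.817, 0.617 and 1.17 FPKM. Neither Loxl1 nor Lox had its lowest value in WT-labelled library 1. Fbln2 (fibulin-2, ENSMUSG00000064080, chr6:91212455-91272540, plus strand), the most abundant of the elastic fibre group, gave 43.4, 74.0 and 66.7 FPKM against 60.4, 50.04 and 52.3 FPKM. Its log2 difference of -0.14 (SE 0.18) came to 0.0057 without WT-labelled library 2, so its direction rests on that library. Mfap5 and Fbln1 had log2 differences of -0.13 and -0.31. Mfap2, at 11 to 13 fragments per library, had one of 0.05, and -0.02 without WT-labelled library 1.

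Among the matrix glycoproteins, all 4 were lower in mean under the KO label, with a median log2 difference of -0.40. Sparc (ENSMUSG00000018593, chr11:55394500-55423183, minus strand), a collagen-binding protein needed for fibril assembly, gave 119, 188 and 188 FPKM against 133, 109 and 142 FPKM. WT-labelled library 1 lay inside the KO range for Sparc, whose log2 difference was -0.34 (SE 0.18). Dpt (dermatopontin, ENSMUSG00000026574, chr1:164796644-164824266, plus strand), which binds decorin, gave 12.9, 23.7 and 23.4 FPKM against 14.5, 13.1 and 16.1 FPKM. Its log2 difference was -0.39 (SE 0.21). Fn1 (fibronectin), the scaffold on which collagen is laid down, gave 8.33, 21.5 and 22.4 FPKM against 12.4, 8.40 and 10.7 FPKM, with a log2 difference of -0.58. Postn (periostin) was the member with the widest KO-labelled span, at 2.17, 5.91 and 7.06 FPKM against 1.63, 3.08 and 6.07 FPKM. KO-labelled library 3 lay above WT-labelled library 2 for Postn.

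Collagen processing and remodelling genes were mixed. Of 6, 5 were lower in mean under the KO label, with a median log2 difference of -0.35, and Timp3 was higher. Serpinh1 (ENSMUSG00000070436, chr7:99345376-99353239, minus strand) encodes HSP47, the endoplasmic reticulum chaperone of procollagen, whose promoter is printed above. It gave 25.3, 33.0 and 31.5 FPKM against 23.9, 20.7 and 21.0 FPKM, without overlap. The log2 difference was -0.43 (SE 0.12, 95% interval -0.70 to -0.16, unadjusted p = 0.0063 by limma, adjusted p = 0.988; exact permutation test, p = 0.1). WT-labelled library 1 was the lowest WT value for Serpinh1 as well, but by less than for the collagens. Serpinh1 over Col1a1 was therefore 0.929 in WT-labelled library 1 and 0.348 and 0.300 in libraries 2 and 3, against 0.821, 0.636 and 0.427.

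Timp3 (ENSMUSG00000020044, chr10:86300372-86349506, plus strand), a matrix-bound inhibitor of metalloproteinases, gave 32.3, 39.0 and 49.6 FPKM against 44.8, 49.0 and 37.8 FPKM. The log2 difference was 0.13 (SE 0.16), and -0.01 without WT-labelled library 1. Its exons share 1733 bases with Syn3 on the other strand, and how strand was handled is not stated in the labels. Timp2 (ENSMUSG00000017466, chr11:118301069-118355740, minus strand) gave 22.5, 36.7 and 35.3 FPKM against 28.6, 28.005 and 28.3 FPKM. The KO-labelled values of Timp2 lay within 1 FPKM of each other, and the log2 difference was -0.12 (SE 0.17), or 0.0025 without WT-labelled library 2. Timp1, an inhibitor induced in injured tissue, had the widest WT-labelled span, 6.38-fold, at 0.434, 1.83 and 2.77 FPKM against 0.480, 0.782 and 0.687 FPKM, from 4 to 21 fragments. Pcolce, which enhances procollagen trimming, and Mmp2, a gelatinase, had log2 differences of -0.35 and -0.34.

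The gene with the smallest unadjusted p among the members was a surface marker. Thy1 (ENSMUSG00000032011, chr9:44043384-44048579, plus strand), a glycoprotein of fibroblasts also found on T cells and neurons, gave 6.00, 6.37 and 8.67 FPKM against 3.15, 3.92 and 4.35 FPKM. All 3 WT-labelled libraries lay above all 3 KO-labelled ones, and WT-labelled library 1 lay close to WT-labelled library 2. Group means were 7.01 ± 1.44 and 3.81 ± 0.611 FPKM (SD, n = 3 each). The log2 difference was -0.73 (SE 0.16, 95% interval -1.10 to -0.36, unadjusted p = 0.00164 by limma, adjusted p = 0.988), and the exact permutation test gave p = 0.1. Without WT-labelled library 1 it was -0.82 (limma adjusted p = 0.15), without WT-labelled library 2 -0.78 and without WT-labelled library 3 -0.59.

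Pdgfra (ENSMUSG00000029231, chr5:75152292-75198215, plus strand), the PDGF receptor that marks fibro-adipogenic progenitors, did not follow Thy1. It gave 5.93, 10.3 and 8.28 FPKM against 6.72, 6.49 and 6.27 FPKM, with WT-labelled library 1 the lowest of 6 and a log2 difference of -0.26 (SE 0.17). Gsn (gelsolin, ENSMUSG00000026879, chr2:35256380-35307892, plus strand), an actin-severing protein that fibroblasts express strongly, gave 203, 443 and 400 FPKM against 301, 249 and 306 FPKM. Its log2 difference was -0.22 (SE 0.26). Altogether 5 members had groups that did not overlap with the KO label lower, namely Eln, Mfap4, Fbln5, Serpinh1 and Thy1, where 5.64% of all tested genes had such groups. With the KO label higher there were 0 members and 3.84% of all tested genes. These 5 of 43 belong to a set chosen with earlier results known, so their larger share than the background is a description only. Their values are given above.

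Levels of different members can be compared only per length, and the length behind the deposited values was not that of the full messenger. For 30 of 44 members, the length recovered from the FPKM values lay within 1 base of the mean of all annotated transcripts of the gene, short fragments included. The longest coding transcript was longer than the length used by a median factor of 1.51, with a range of 0.955 to 3.33. As deposited, the highest mean levels over 6 libraries were Gsn at 317, Sparc at 146, Dcn at 113, Col3a1 at 64.3, Fbln2 at 57.8 and Col1a1 at 56.4 FPKM. Rescaled to the longest coding transcript, the levels were 174 for Gsn, 118 for Dcn, 80.7 for Sparc and 26.5 FPKM for Serpinh1. Col1a1 came to 16.9 FPKM on that scale and passed from rank 6 to rank 13. The most abundant messengers of the set per length were thus gelsolin, which is cytoskeletal, decorin and SPARC on both scales, while the place of the collagens turned on the length. The length is the same in all 6 libraries, so ratios between libraries do not depend on it, but through the added 1 and the filter at 1 FPKM it enters the log2 differences of low genes.

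**Figure D4:**
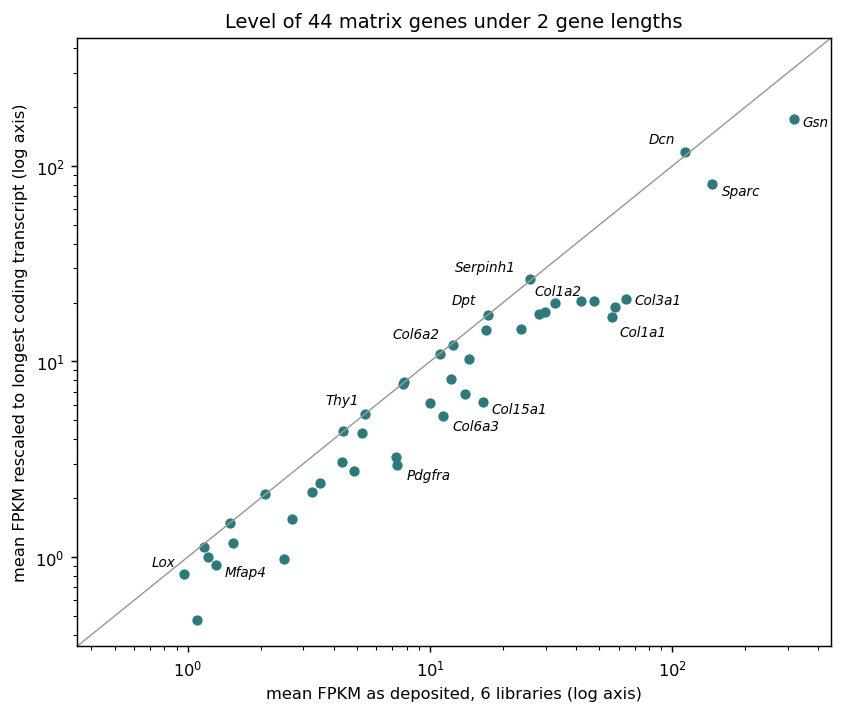
Mean FPKM over 6 libraries as deposited (x, log axis) against the same mean rescaled to the longest coding transcript (y, log axis) for the 44 members, with the line of equality. Dcn and Serpinh1 lie on the line, while Col1a1, at 56.4 as deposited and 16.9 rescaled, lies far below it.

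Lists of other matrix synthesis and turnover genes had smaller median log2 differences than the members' -0.34. Single genes went beyond that median, such as Mmp23 at -0.62 and Efemp2 at -0.55. Of all the listed genes, 0 passed the adjusted test in limma or voom. Of the 24 tested collagen synthesis enzymes (29 listed), 21 were lower in mean under the KO label, with a median log2 difference of -0.14. An unadjusted p under 0.05 was reached there by P4ha1, P3h3, Adamts2 and Pcolce2, all lower, where 3.31% of all tested genes were. P4hb, the beta subunit of prolyl 4-hydroxylase and the most abundant of the list, gave 85.8, 101 and 95.6 FPKM against 94.0, 86.9 and 93.3 FPKM, and Sec23a, a coat protein of secretory vesicles, had a log2 difference of -0.06. Neither separated the labels. Of 26 tested TGF-beta and CCN signalling genes, 19 were lower and 7 higher, with a median of -0.10 and none at an unadjusted p under 0.05. The log2 differences of its most abundant genes, the signal transducers Smad3 and Smad4, were 0.02 and -0.09.

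Of 13 other tested proteases and inhibitors, 11 were lower, with a median log2 difference of -0.30 and Mmp15, a membrane-bound metalloproteinase, at an unadjusted p under 0.05. All 12 tested basement membrane genes were lower, with a median of -0.14 and none at that p. Their most abundant genes, Lamb2 and Col4a2, had log2 differences of -0.11 and -0.32. Of 20 other interstitial matrix genes, 18 were lower, with a median of -0.26, and Mgp, Efemp2, Svep1 and Fbln7 reached an unadjusted p under 0.05. Lgals1 and Sparcl1, the most abundant of these, had log2 differences of -0.14 and 0.04. WT-labelled library 1 lay below the mean of the 6 libraries in all 5 lists, by 0.19 to 0.36 on the log2 scale. Without that library the medians were -0.24 for synthesis enzymes, -0.22 for TGF-beta and CCN signalling, -0.42 for proteases and inhibitors, -0.35 for basement membrane genes and -0.49 for other interstitial matrix genes. The numbers lower at an unadjusted p under 0.05 were then 10 of 24, 3 of 26, 6 of 13, 7 of 12 and 13 of 20 in the same order. Of all tested genes 9.35% were, and the TGF-beta and CCN count lies near that share.

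Markers of other cells differed between the same libraries, and their part in the matrix values was not tested. The median log2 difference was -0.42 for adipocyte, -0.39 for tendon cell and -0.34 for macrophage and leukocyte markers, beside -0.34 for the members. It was -0.19 for fibroblast markers outside the matrix and -0.12 for smooth muscle and pericyte markers. Endothelial, Schwann cell and muscle fibre markers had -0.07, -0.01 and 0.05. Without WT-labelled library 1 the adipocyte, tendon cell and leukocyte medians were -0.74, -0.84 and -0.69, beside -0.65 for the members. The 8 tested smooth muscle and pericyte markers had a mean log2 deviation of -0.41 in WT-labelled library 1, and summed to 239 to 418 FPKM with the WT label and 314 to 356 FPKM with the KO label. The 8 endothelial markers deviated by -0.26 there (sums 187 to 260 against 205 to 235 FPKM). The same library was thus low for vessel genes as well as for the matrix. The 7 tested of 10 tendon cell markers deviated by -0.43 there and by -0.53 in KO-labelled library 1 (47.9 to 121 against 46.6 to 68.5 FPKM), while Scx, a transcription factor of tendon cells, was highest in WT-labelled library 1, at 6.88 FPKM. The 14 tested of 20 fibroblast markers outside the matrix deviated by -0.25 there (168 to 236 against 158 to 192 FPKM), and Tcf21 was listed at 0 in all 6 libraries. Of the 14 tested, 11 were lower and 3 higher in mean under the KO label. Ly6a and Cxcl14 were lower at an unadjusted p under 0.05, where 3.31% of all tested genes were. Ly6a gave 54.6, 59.2 and 74.7 FPKM against 50.7, 46.6 and 49.1 FPKM. Its log2 difference was -0.35 (limma unadjusted p = 0.0182).

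The 6 tested of 7 adipocyte markers deviated by -0.31 in WT-labelled library 1 (100.4 to 146 against 87.1 to 102 FPKM), and all 6 were lower in mean under the KO label. An unadjusted p under 0.05 was reached by Cfd, Fabp4 and Retn. Cfd (adipsin) gave 15.6, 23.4 and 35.9 FPKM against 12.2, 8.10 and 11.8 FPKM, a log2 difference of -1.10 (limma unadjusted p = 0.00338), larger than that of any member on this scale. The 7 tested of 10 macrophage and leukocyte markers deviated by -0.76 there and by 1.39 in WT-labelled library 3 (18.4 to 185 against 18.2 to 36.7 FPKM). Most of the sum in WT-labelled library 3 came from the neutrophil genes S100a8 and S100a9, at 70.8 and 67.1 FPKM there. The other tested markers of this list were mixed. Csf1r and Cd68 were highest in WT-labelled library 2, at 1.999 and 2.81 FPKM, against 1.64 and 2.26 FPKM in WT-labelled library 3. Mrc1 and Lyz2 were highest in WT-labelled library 3, at 2.795 and 35.02 FPKM, against 2.425 and 25.46 FPKM in WT-labelled library 2. Cd163 was nearly equal in these libraries, at 2.401 FPKM in library 2 and 2.393 FPKM in library 3. Lyz2 was lower in mean under the KO label (log2 difference -0.802, limma unadjusted p = 0.0391). The 10 muscle fibre markers deviated by 0.06 in WT-labelled library 1 (80516 to 88523 against 80677 to 84240 FPKM), and the 6 tested of 7 Schwann cell markers by -0.07 (88.1 to 108 against 86.2 to 101 FPKM). The summed fibre markers thus lay within a narrow range, but the list holds no slow-fibre gene and single genes varied more. Acta1 ran from 13695 FPKM in KO-labelled library 3 to 19584 FPKM in WT-labelled library 2. Pvalb gave 9905, 6882 and 7107 FPKM in WT-labelled libraries 1 to 3. The fast myosin gene Myh1 had groups that did not overlap, at 1881, 1841 and 1763 FPKM against 2753, 2255 and 1977 FPKM (log2 difference 0.34, limma unadjusted p = 0.0213). Of 4 satellite cell markers, 1 was tested.

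**Figure D5:**
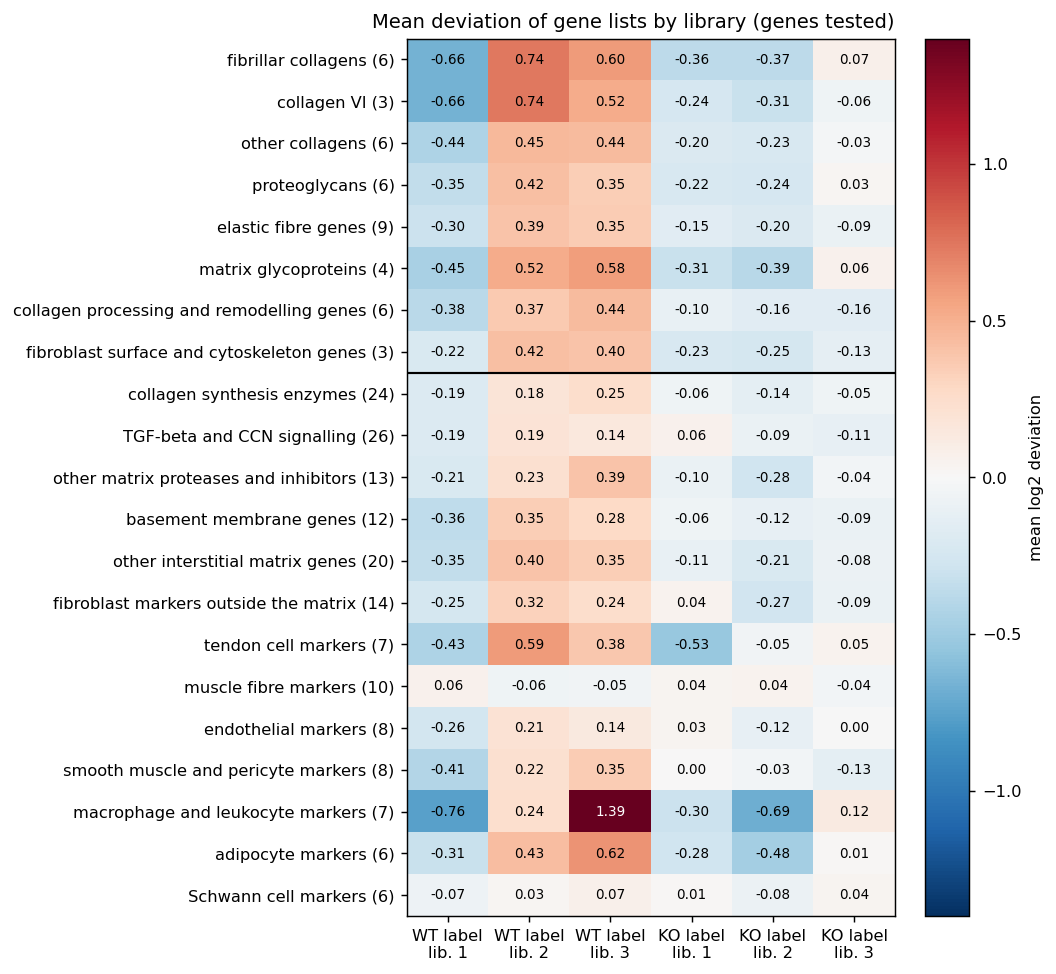
Mean log2 deviation from the 6-library mean for each role group of the members (above the line) and each other list (below it), with the number of tested genes in parentheses. WT-labelled library 1 is negative in every row except muscle fibre markers, and the deviations are widest for fibrillar collagens and collagen VI among the role groups, at -0.66 in that library.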

How the data were processed

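RNA-seq of 6 TA libraries was deposited as FPKM per gene, with TopHat2 2.1.1, Cufflinks 2.2.1 and mm10 named, per the submitters' processing notes. What each tool did, the annotation release and the handling of strand are not stated there. Per the FPKM formula, fragments were recovered with 1 whole gene length per gene (tolerance 0.002 of a fragment); lengths lay within 1 base of the mean GENCODE transcript length for 67.1% of genes whose mean reached 1 FPKM. Differences were fitted on log2(FPKM + 1) with limma 3.58.1 in R 4.3.3 (mean-variance trend, no scaling, genes whose mean reached 1 FPKM, Benjamini-Hochberg threshold 0.05), a scale that understates the change of low genes. A limma voom fit of the recovered fragments, scaled by their totals, was added after seeing the data. Gene coordinates are those of GENCODE on mm10. The test was checked on simulated data in which each gene varied on its own. That check does not cover a shift shared by many genes of 1 library.

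The members and lists were chosen with earlier results of these data known. Given in full are the 2 most abundant members of each role group and every member with an unadjusted p under 0.05. No gene of the other lists passed the test. From the synthesis, signalling, basement membrane and other interstitial matrix lists the 2 most abundant genes are named. The protease and cell type lists are given mainly by summary values. Other genes named were chosen after their values were seen. Alternatives were median and quantile scaling, a pseudocount of 0.1, no filter, a mean of at least 5 FPKM, a replicate block, no trend, and leaving out each library. Exons of 13 members overlap another gene, among them Timp3, Fbn1, Eln, Mfap4, Prelp, Pdgfra, Fn1 and Pcolce, so their values are uncertain. All pairs of libraries differed by more than sampling noise (smallest chi-square per degree of freedom 7.05).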

Additional observations from a re-analysis of the deposited data

How the results depend on the processing

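Members past the adjusted threshold numbered 0 under all alternatives. Genes past it numbered 0 in limma on all 6 libraries (523 at an unadjusted p under 0.05, 466 by voom) and 0 to 3 when 1 library was left out: 1 without WT-labelled library 1 (Igha), 3 without WT-labelled library 3 (Myh7, Gm17720 and Tnnc1) and 1 without KO-labelled library 3 (Gm2830), none of them a member. The members' median log2 difference ranged from -0.65 to -0.19 when 1 library was left out and from -0.40 to -0.30 under the other settings. Members with an unadjusted p under 0.05 numbered 4, but 38 without WT-labelled library 1. They numbered 3 each without WT-labelled library 2 and without WT-labelled library 3. Of the 43 tested members, 8 changed sign when 1 library was left out (Col5a1, Col5a3, Col8a1, Fbln2, Mfap2, Mfap5, Timp2 and Timp3) and none under the other settings. Of those given in full, Timp3 ranged from -0.012 (without WT-labelled library 1) to 0.29, Fbln2 from -0.37 to 0.0057 (without WT-labelled library 2) and Timp2 from -0.34 to 0.0025 (without WT-labelled library 2). The other 16 of the 19 given in full kept their direction under each of the 14 alternatives that tested them; Col18a1 and Mfap4 fell below the filter of 5 FPKM. With median scaling 43.2% of all tested genes were lower under the KO label, and with quantile normalization 46.0%, against 56.7% unscaled; 41 of 43 members were lower in each. Libraries of the same number did not deviate together (correlations 0.0236, -0.0408 and 0.0232), so the numbers were not taken as pairs. With the replicate block 0 genes and 0 members passed, the members' median was -0.34, and 8 members had an unadjusted p under 0.05, as did 4.15% of all tested genes. Depth limits Timp1, Mfap2 and Mfap4, which held 4 to 33 fragments in a library.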
